A study of Rattus norvegicus with 16 samples.

Results

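The genes described here are 9 components or scaffolds of gap junctions and tight junctions, namely Gjb1, Gjc3, Gja1, Panx1, Cldn19, Cldn1, Cldn5, Ocln and Tjp1. They were chosen by symbol, as a list of junction genes with known roles in the nerve, and all 9 were found among the 31038 genes of each library. RNA was sequenced from Schwann cells purified from the rat sciatic nerve and from whole sciatic nerve, in 16 libraries that form 8 groups of 2. For each tissue 1 group came from uncrushed nerve and the others from nerve crushed at mid-thigh and taken 3, 5 or 7 days later. No allele or transgene distinguished the groups, the labels give postnatal day 18 as the age of every sample, and the strain was not given. According to the methods the injured animals were crushed at that age and received an analgesic at surgery, and the uncrushed nerves had no sham operation, so that crush, surgery, analgesic, time and any later age cannot be told apart. The tissue came from below the crush, or from the corresponding stretch where there was none. Each sample pooled at least 10 nerves, which for Schwann cells were digested, dissociated and passed over dishes with antibodies against CD45 and Thy1 before the cells were collected on a dish with the O4 antibody. Whole nerve was not dissociated, so that the cell composition and the purification cannot be told apart when both tissues are compared.

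Gap junctions are channels made of connexins that let small molecules pass from cell to cell or, in a myelinating Schwann cell, between the layers of its own membrane. Tight junctions are strands of claudins and occludin that seal the space between membranes, and scaffold proteins tie them to the cytoskeleton. In the nerve they are known from the myelin sheath at the paranodes and incisures, from the perineurium around each fascicle and from the endothelium of its vessels.

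Gjb1 (connexin 32), Gjc3 (connexin 29) and Cldn19 (claudin 19) are the members known as junction components of myelinating Schwann cells, and all 3 fell after crush in whole nerve. The 250 bases before their start sites are shown for this reason, as RefSeq gives them in the assembly GRCr8, whereas the counts were made on Rnor_6.0. The Cldn19 stretch lies at chr5:138148325-138148574 on the plus strand, the Gjc3 stretch at chr12:22024568-22024817 on the minus strand and the Gjb1 stretch at chrX:70541595-70541844 on the plus strand. Each is upstream of the gene and holds no exon of it, and each is written 5′ to 3′ towards the start site. Capitals mark matches, on either strand, to GNGGGNG, a loose form of the site of EGR factors, and to GGAATG, the core of the site of TEAD factors.
Cldn19: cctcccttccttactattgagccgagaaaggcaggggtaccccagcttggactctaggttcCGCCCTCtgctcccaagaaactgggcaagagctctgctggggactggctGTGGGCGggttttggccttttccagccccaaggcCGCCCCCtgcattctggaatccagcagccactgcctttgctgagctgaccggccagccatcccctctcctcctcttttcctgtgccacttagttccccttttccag
Gjc3: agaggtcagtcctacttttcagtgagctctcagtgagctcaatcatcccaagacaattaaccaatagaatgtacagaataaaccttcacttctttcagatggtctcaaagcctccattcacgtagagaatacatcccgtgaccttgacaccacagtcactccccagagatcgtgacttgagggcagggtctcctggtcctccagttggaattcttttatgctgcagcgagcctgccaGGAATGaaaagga
Gjb1: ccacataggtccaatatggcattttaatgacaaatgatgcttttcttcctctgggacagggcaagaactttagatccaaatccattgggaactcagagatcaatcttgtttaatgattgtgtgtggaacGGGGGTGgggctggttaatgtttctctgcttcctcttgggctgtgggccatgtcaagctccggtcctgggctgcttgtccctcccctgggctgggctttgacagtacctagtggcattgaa
The Cldn19 stretch held 3 matches to GNGGGNG and the Gjb1 stretch 1, and 56.72% of all 33469 promoter stretches of this length held at least 1. The match of Cldn19 that starts 140 bases before the start site also reads GTGGGCG, letters that overlap the looser form and that 6.27% of all stretches held. GGAATG stood 13 bases before the start site of Gjc3 and in 12.06% of all stretches. The letters ACAAAG and ACAATG, cores of the site of SOX factors, were in none of the 3 stretches and in 16.3% and 11.08% of all. These matches describe letters and not bound sites. Only 1 stretch per gene was read, so other start sites were not searched. Which start site these samples used was not tested. The GC content was 60.0% for Cldn19, 47.2% for Gjc3 and 49.2% for Gjb1, against a median of 51.2% over all stretches.

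Depth, the sum of estimated fragment counts, lay between 10555067 and 27562637 per library. Markers of Schwann cells summed to 2718 to 7537 FPKM in the purified cells and to 1669 to 15709 FPKM in whole nerve (FPKM scale the fragments of a gene to its length and to the depth of the library, and are used here for levels). Markers of endothelial cells summed to 0.62 to 3.70 FPKM in the purified cells against 81.1 to 119.6 FPKM in whole nerve, and markers of fibroblasts to 150.3 to 326 against 3960 to 5712 FPKM. The 4 perineurial markers summed to 57.3 to 118.6 FPKM in the purified cells and to 55.6 to 91.2 FPKM in whole nerve. Of these, Itgb4, which Schwann cells also express, stood at 98.8 and 95.3 FPKM in uncrushed Schwann cells against 32.2 and 43.2 in whole nerve, and Slc2a1 at 19.9 and 19.2 against 38.6 and 47.5. Lypd2 was at 0 in all libraries and Msln at 0 in the purified cells from uncrushed nerve and at day 7. Replicate 2 of Schwann cells at day 3 held more endothelial (3.70 against 0.97 FPKM), macrophage (11.8 against 2.45 FPKM) and pericyte markers (12.9 against 3.88 FPKM) than replicate 1, and the members' values that changed their call or moved by over 1.5 times without it are also given without it. Replicate 2 of uncrushed whole nerve held 349.6 FPKM of skeletal muscle markers against 24.3 in replicate 1. In bulk samples fewer cells of a type and less RNA per cell cannot be told apart. Nothing in the labels says how the 2 samples of a group were kept separate, and p-values then measure only the spread between these samples, which may be technical.

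**Figure D1:**
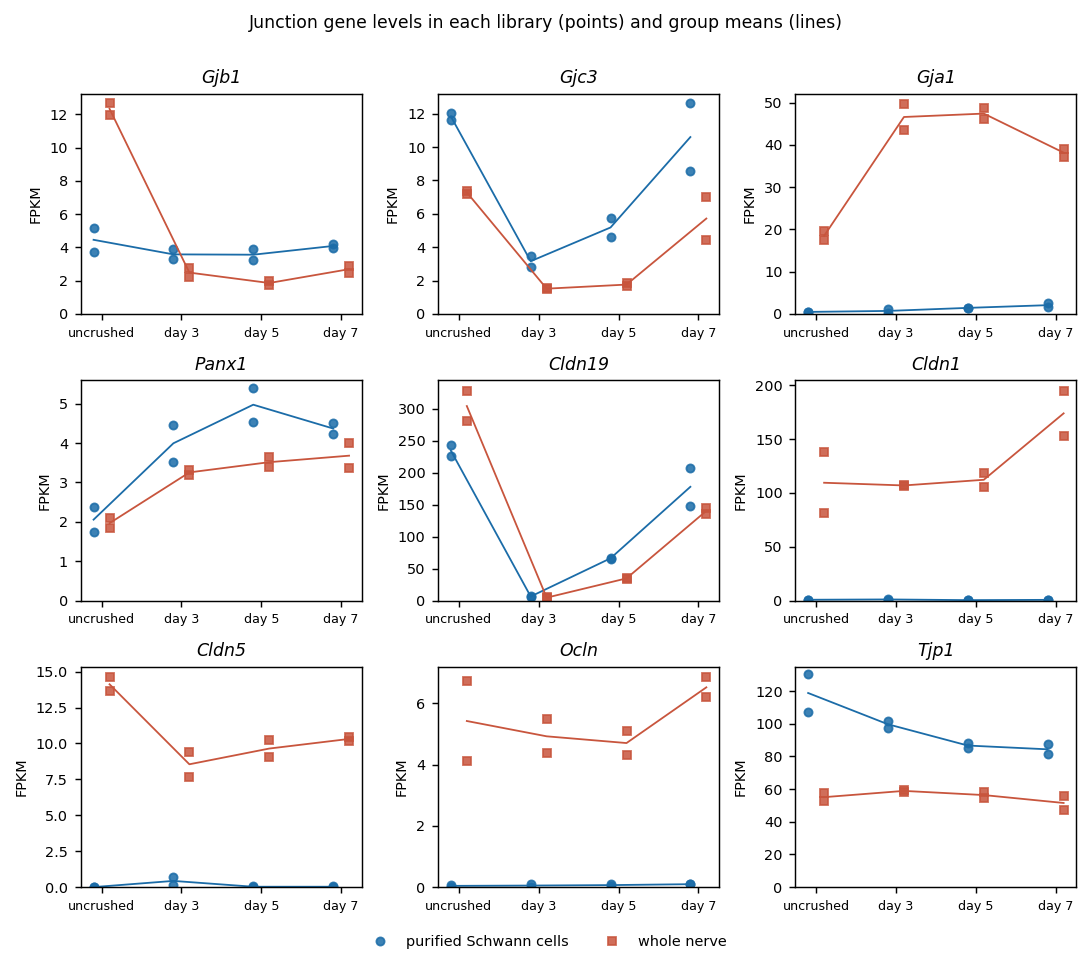
FPKM of the 9 junction genes in each of the 16 libraries, on linear axes that start at 0, with circles for purified Schwann cells, squares for whole nerve and lines through the means of 2 libraries. Cldn19 and Gjc3 were lowest at day 3 in the purified cells and higher at day 7, where Cldn19 stayed below the uncrushed libraries, Gjb1 fell in whole nerve, and Cldn1, Cldn5, Ocln and Gja1 were far higher in whole nerve.

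In purified Schwann cells from uncrushed nerve the order of levels was Cldn19 (mean 235 FPKM), Tjp1 (119), Gjc3 (11.8), Gjb1 (4.46), Panx1 (2.06), Cldn1 (0.72), Gja1 (0.49), Ocln (0.04) and Cldn5, which was listed at 0. Only the neighbours Ocln and Cldn5 overlapped in their library values. In whole uncrushed nerve Cldn19 (305 FPKM) again led, followed by Cldn1 (109), Tjp1 (55.1), Gja1 (18.5), Cldn5 (14.1), Gjb1 (12.3), Gjc3 (7.28), Ocln (5.43) and Panx1 (1.97), and no neighbours overlapped. At day 3 Cldn19 was second in Schwann cells at 6.32 FPKM, behind Tjp1 at 99.7. In whole nerve it was sixth at 4.51 FPKM, and its library values overlapped those of Ocln, next above it. By day 7 it was first again in Schwann cells and second to Cldn1 in whole nerve.

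Injury changed some of these genes in each tissue. Each day was compared with uncrushed nerve of the same tissue by the quasi-likelihood test of edgeR, with p adjusted by Benjamini-Hochberg over all genes tested and a threshold of 0.05. In Schwann cells 7 of the 9 had enough counts to be tested, and Cldn5 and Ocln did not. Of these 7, 3 passed at day 3 (1 higher, 2 lower), where 52.5% of all genes tested passed (26.9% higher, 25.7% lower). At day 5, 5 passed (2 higher, 3 lower), against 54.6% of all genes (29.0% higher, 25.6% lower). At day 7, 4 passed (2 higher, 2 lower), against 46.9% of all genes (25.0% higher, 21.9% lower). Without replicate 1 at day 3 the first of these counts was 5, and without replicate 2 at day 7 the last was 2. Where a library is left out here and below, its group holds 1 library, which is assumed to vary like the other groups of the fit. In whole nerve all 9 were tested, and 6 passed at day 3 (1 higher, 5 lower), against 45.6% of all genes (23.1% higher, 22.5% lower). At day 5, 6 passed (1 higher, 5 lower), against 38.4% (18.9% higher, 19.5% lower), and at day 7, 7 passed (2 higher, 5 lower), against 31.3% (15.4% higher, 15.9% lower). The median log2 fold change of the members was −0.19, −0.46 and −0.19 at the 3 days in Schwann cells and −0.56, −0.60 and −0.51 in whole nerve, with the median of all genes between −0.01 and 0.06. Between day 3 and day 7, 3 of 7 members differed in Schwann cells (2 higher at day 7, 1 lower), against 21.0% of all genes (10.2% higher, 10.7% lower). In whole nerve 3 of 9 differed (all higher), against 21.2% (9.85% higher, 11.4% lower). These counts were 5 (3 higher) in Schwann cells with all 16 libraries fitted and 5 (4 higher) in whole nerve without a filter on low counts.

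**Figure D2:**
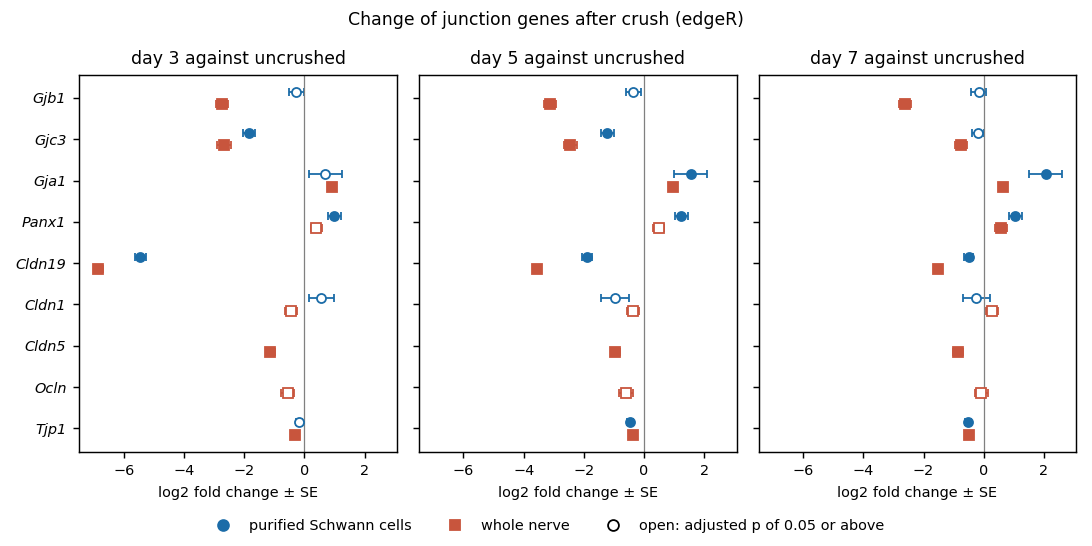
Log2 fold change of each junction gene against uncrushed nerve of the same tissue at days 3, 5 and 7, with SE bars from edgeR, filled where the adjusted p was below 0.05. Cldn19 lay at −5.45 in Schwann cells and −6.85 in whole nerve at day 3, and Gjb1 near −3 in whole nerve but near 0 in Schwann cells.

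Gjb1, whose loss of function in people causes an inherited neuropathy, fell in whole nerve and did not pass the test in purified Schwann cells. In whole nerve it stood at 11.97 and 12.7 FPKM before crush, 2.22 and 2.75 on day 3, 2.00 and 1.72 on day 5 and 2.47 and 2.91 on day 7. All 6 crushed libraries lay below both uncrushed libraries. The log2 fold changes were −2.74 (SE 0.19, adjusted p = 1.54e-06, edgeR), −3.12 (SE 0.20) and −2.61 (SE 0.20). In Schwann cells the values were 3.74 and 5.17 FPKM before crush, 3.28 and 3.88 on day 3, 3.88 and 3.24 on day 5 and 4.19 and 3.98 on day 7. The crushed libraries overlapped the uncrushed ones at every day. The log2 fold changes were −0.27, −0.36 and −0.17, with 95% intervals of −0.81 to 0.27, −0.91 to 0.18 and −0.72 to 0.38, and adjusted p of 0.373, 0.231 and 0.602 (edgeR). Gjb1 did not pass between day 3 and day 7 in either tissue.

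Gjc3, which lines the inner membrane of the myelin sheath beside the axon, fell in both tissues by day 3 and was back near its starting level in Schwann cells at day 7. In Schwann cells it stood at 11.6 and 12.04 FPKM before crush, 2.82 and 3.50 on day 3, 4.59 and 5.77 on day 5 and 12.6 and 8.56 on day 7. The libraries of days 3 and 5 lay below the uncrushed ones and those of day 7 fell on either side of them in FPKM. The log2 fold changes were −1.84 (SE 0.21, adjusted p = 6.55e-05, edgeR), −1.22 (SE 0.21, adjusted p = 0.000808) and −0.19 (SE 0.20, 95% interval −0.64 to 0.25, adjusted p = 0.451). From day 3 to day 7 it rose by 1.65 on the log2 scale (SE 0.21, adjusted p = 0.000631). In whole nerve the values were 7.17 and 7.39 FPKM before crush, 1.56 and 1.47 on day 3, 1.85 and 1.67 on day 5 and 4.44 and 6.99 on day 7. All crushed libraries were lower than both uncrushed ones, with log2 fold changes of −2.67 (SE 0.22), −2.45 (SE 0.22) and −0.76 (SE 0.20, adjusted p = 0.0171, edgeR). The last call was lost without either uncrushed library or without replicate 1 of day 7, where the log2 fold change lay between −0.78 and −0.45 and the adjusted p between 0.053 and 0.120. From day 3 to day 7 Gjc3 rose by 1.91 in whole nerve (SE 0.22, adjusted p = 0.000231, edgeR).

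Gja1 (connexin 43), the connexin of fibroblasts and many other cells, rose after crush in whole nerve and from a very low level in Schwann cells. In whole nerve it stood at 19.6 and 17.4 FPKM before crush, 43.6 and 49.6 on day 3, 46.1 and 48.7 on day 5 and 37.2 and 39.1 on day 7. All 6 crushed libraries lay above both uncrushed ones, and the log2 fold changes were 0.92 (SE 0.10, adjusted p = 2.86e-05, edgeR), 0.95 (SE 0.10) and 0.64 (SE 0.10). Macrophage markers in whole nerve summed to 125.8 and 114.2 FPKM before crush and 496 and 521 on day 3. They summed to 325 and 301 on day 5 and 320 and 319 on day 7. Fibroblast markers summed to 3960 and 4669 FPKM before crush and 4746 to 5712 after it. In normalised read counts (CPM on the TMM scale of the test) the fibroblast sum was instead lower at days 3 and 5 than in both uncrushed libraries. The part of either cell type in the rise of Gja1 was not tested. In Schwann cells the values were 0.51 and 0.46 FPKM before crush, 0.28 and 1.16 on day 3, 1.38 and 1.5 on day 5 and 1.68 and 2.48 on day 7. The 2 libraries of day 3 lay on either side of the uncrushed ones, and those of days 5 and 7 lay above them. The log2 fold change at day 3 was 0.70 (adjusted p = 0.313, edgeR), and it was −0.74 without replicate 2, which held more markers of other cells, and 1.297 (adjusted p = 0.0182) without replicate 1. At day 5 it was 1.55 (SE 0.54, adjusted p = 0.0355), a call that was lost without any 1 of the 4 libraries compared (adjusted p from 0.085 to 0.112). At day 7 it was 2.05 (SE 0.54, adjusted p = 0.0117), and 1.76 (adjusted p = 0.0603) without replicate 2 of day 7. From day 3 to day 7 the log2 fold change was 1.35 (adjusted p = 0.0828), and 2.80 (adjusted p = 0.00567) without replicate 2 of day 3. It also passed without a filter (1.36, adjusted p = 0.000544) and with all 16 libraries in the fit (1.26, adjusted p = 0.0172). Of the 4 fibroblast markers in Schwann cells, Col1a1 made up most of the sum, with 301 and 297 FPKM before crush and 209 and 243 at day 7, and Dcn stood at 16.9 and 7.92 before crush, 6.77 and 17.9 at day 3 and 6.56 and 4.51 at day 7. Their part in the values of Gja1 was not tested.

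Panx1 forms channels in the plasma membrane that release ATP, and is related to the channels of gap junctions without usually joining cells. It rose in Schwann cells at each day after crush. The values were 1.73 and 2.38 FPKM before crush, 4.46 and 3.53 on day 3, 4.54 and 5.41 on day 5 and 4.51 and 4.23 on day 7, and all 6 crushed libraries lay above both uncrushed ones. The log2 fold changes were 1.00 (SE 0.22, adjusted p = 0.00355, edgeR), 1.23 (SE 0.22, adjusted p = 0.00103) and 1.04 (SE 0.22, adjusted p = 0.00347). In whole nerve the values were 2.09 and 1.84 FPKM before crush, 3.31 and 3.20 on day 3, 3.38 and 3.65 on day 5 and 3.37 and 3.99 on day 7. The crushed libraries again lay above the uncrushed ones, and on the TMM scale of the test the log2 fold changes were 0.40 (adjusted p = 0.110), 0.49 (adjusted p = 0.0671) and 0.57 (adjusted p = 0.0458, edgeR). The call at day 7 was lost without either uncrushed library or without replicate 2 of day 7 (adjusted p from 0.094 to 0.194) and under 4 other settings, among them DESeq2 (adjusted p = 0.192), and day 5 passed with all 16 libraries in the fit (adjusted p = 0.0403).

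Cldn19, the claudin of Schwann cell tight junctions, showed the largest change of the 9 in either tissue at day 3. In Schwann cells it stood at 226 and 243 FPKM before crush, 6.13 and 6.51 on day 3, 64.9 and 67.3 on day 5 and 208 and 148.5 on day 7. No group overlapped another, and the means after crush were 2.69%, 28.2% and 75.9% of the uncrushed mean. On the log2 scale the changes were −5.45 (SE 0.19, adjusted p = 5.36e-08, edgeR), −1.90 (SE 0.15, adjusted p = 7.41e-06) and −0.50 (SE 0.15, adjusted p = 0.0198). The last was lost without replicate 2 of the uncrushed cells (adjusted p = 0.0613) or of day 7 (log2 fold change −0.26, adjusted p = 0.129). In whole nerve the values were 280.5 and 329 FPKM before crush, 4.96 and 4.05 on day 3, 34.0 and 35.4 on day 5 and 136 and 145 on day 7. In FPKM the means after crush were 1.48%, 11.4% and 46.1% of the uncrushed mean, again with no overlap between groups. In normalised read counts (CPM on the TMM scale of the test) the means were 862 before crush and 7.50, 73.8 and 303 after it. edgeR gave log2 fold changes of −6.85 (SE 0.16, adjusted p = 1.43e-09, edgeR), −3.55 (SE 0.13) and −1.51 (SE 0.12). From day 3 to day 7 Cldn19 rose by 4.95 on the log2 scale in Schwann cells (SE 0.18, adjusted p = 2.03e-06) and by 5.34 in whole nerve (SE 0.15, adjusted p = 6.92e-08). The study picked Cldn19 from these libraries for a further assay, so that it was not an independent choice.

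The proportion of Cldn19 to Gjb1 moved after crush in both tissues. That of Gjc3 to Gjb1 was lower at days 3 and 5 in Schwann cells and higher at days 5 and 7 in whole nerve. The ratio of Cldn19 to Gjb1 in FPKM was 60.5 and 47.1 in the uncrushed Schwann cell libraries and 1.87 and 1.68 at day 3, and it had returned to 49.6 and 37.3 at day 7. In whole nerve the ratio was 23.4 and 25.9 before crush, 2.23 and 1.47 at day 3 and 55.1 and 49.8 at day 7, above its starting value. The ratio of Gjc3 to Gjb1 was 3.11 and 2.33 in uncrushed Schwann cells and 0.86 and 0.90 at day 3. It was 1.18 and 1.78 at day 5 and 3.01 and 2.15 at day 7. In whole nerve it was 0.60 and 0.58 before crush and 0.70 and 0.53 at day 3, where the libraries spanned the uncrushed ones. There it was 0.925 and 0.971 at day 5 and 1.80 and 2.40 at day 7. These ratios describe the libraries and were not tested.

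Cldn1, a claudin known from the perineurium and from epithelia, was the most abundant of the 9 genes in whole nerve at days 3, 5 and 7 and was almost absent from Schwann cells. In whole nerve it stood at 81.2 and 138 FPKM before crush, 107 and 107 on day 3, 106 and 119 on day 5 and 195 and 153 on day 7. In FPKM the 2 uncrushed libraries spanned those of days 3 and 5, and the libraries of day 7 were the highest. In normalised read counts (CPM on the TMM scale of the test) the values were 304 and 518 before crush, 304 and 301 at day 3, just below both, 299 and 337 at day 5 and 555 and 429.5 at day 7, where an uncrushed library exceeded 1 of the pair. The log2 fold changes of −0.44, −0.37 and 0.26 against uncrushed nerve did not pass the test (adjusted p = 0.107, 0.189 and 0.371, edgeR), and each depended on which uncrushed library was kept, from −0.77 to −0.01, from −0.70 to 0.07 and from −0.07 to 0.70. Cldn1 passed as lower at days 3 and 5 without replicate 1 of uncrushed nerve (adjusted p = 0.00223 and 0.00517) and as higher at day 7 without replicate 2 (0.00808). Without a filter on low counts it passed at all 3 days (0.000575, 0.00607 and 0.0279). From day 3 to day 7 Cldn1 rose by 0.70 (SE 0.21, adjusted p = 0.0353), a call lost without either library of day 3 or replicate 1 of day 7 (adjusted p from 0.145 to 0.198) and under DESeq2 (adjusted p = 0.0937). In Schwann cells the values were 0.66 and 0.78 FPKM before crush, 0.67 and 1.35 on day 3, 0.46 and 0.28 on day 5 and 0.65 and 0.59 on day 7, and no day passed the test. The highest value was again that of replicate 2 at day 3, and without it the log2 fold change at day 3 was −0.06 in place of 0.57. From day 3 to day 7 the log2 fold change was −0.82, which did not pass, and −0.18 without that library.

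Cldn5, the main claudin of endothelial cells, was lower after crush in whole nerve. It stood at 13.6 and 14.6 FPKM before crush, 7.68 and 9.42 on day 3, 9.04 and 10.2 on day 5 and 10.2 and 10.4 on day 7, and all 6 crushed libraries lay below both uncrushed ones. The fold changes, as log2, were −1.13 (SE 0.15, adjusted p = 0.000187, edgeR), −0.96 (SE 0.15, adjusted p = 0.000785) and −0.86 (SE 0.16, adjusted p = 0.00194). The last call was lost when all 16 libraries were fitted together (adjusted p = 0.0638). Endothelial markers summed to 85.7 and 81.1 FPKM before crush and to 101.9 to 119.6 FPKM after it, but in normalised read counts (CPM on the TMM scale of the test) to 309.8 and 297 before crush and 258 to 318 after it. Of the 6 markers 2 passed as higher and 1 as lower at day 3, 1 as higher and 1 as lower at day 5, and 2 as lower at day 7. Kdr was the one that fell at all 3 days, by 0.64, 0.42 and 0.80 on the log2 scale. The part of endothelial cells in the change of Cldn5 was not tested. In Schwann cells Cldn5 had 0 and 0 counts before crush, 3 and 24 on day 3, 0 and 1 on day 5 and 1 and 0 on day 7. At a floor of 3 counts over the 2 libraries, the level at day 3 was at least 5.77-fold higher than before crush, but 24 of the 27 counts came from replicate 2, in which the 6 endothelial markers had 381 counts against 62 in replicate 1. The part of those cells in the value was not tested.

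Ocln, the tight junction protein occludin, did not pass the test at any day in whole nerve. Its values were 4.13 and 6.72 FPKM before crush, 4.37 and 5.48 on day 3, 5.09 and 4.32 on day 5 and 6.85 and 6.20 on day 7, and the uncrushed libraries spanned those of days 3 and 5 in FPKM. In normalised read counts (CPM on the TMM scale) they were 16.4 and 27.5 before crush, 13.5 and 16.03 on day 3, 15.3 and 13.3 on day 5 and 21.2 and 19.6 on day 7, so that days 3 and 5 lay below both uncrushed libraries. Log2 fold changes were −0.56 (95% interval −1.04 to −0.07, adjusted p = 0.0594, edgeR), −0.60 (−1.09 to −0.12, adjusted p = 0.0520) and −0.09 (−0.57 to 0.40, adjusted p = 0.792). At day 3 it passed without a filter on low counts (adjusted p = 0.0109) and with at least 10 counts in every library (0.0397), and at day 5 under these settings (0.00539 and 0.0347) and DESeq2 (0.0493), as well as without replicate 1 of uncrushed nerve at both days. In Schwann cells 0 and 3 counts were found before crush, 0 and 8 on day 3, 5 and 2 on day 5 and 5 and 5 on day 7. The ratio of day 7 to uncrushed cells was 2.87, with an interval of 0.74 to 16.2 that covers counting error only, so that no difference was detectable at this depth.

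Tjp1 (ZO-1), a scaffold that binds claudins, occludin and connexins, was the second most abundant member in Schwann cells before crush and fell there by days 5 and 7. It stood at 131 and 107 FPKM before crush, 102 and 97.7 on day 3, 85.2 and 88.2 on day 5 and 81.4 and 87.4 on day 7, and all crushed libraries lay below both uncrushed ones. On the log2 scale the changes were −0.19 (SE 0.10, adjusted p = 0.134, edgeR), −0.46 (SE 0.10, adjusted p = 0.00379) and −0.52 (SE 0.10, adjusted p = 0.00226). At day 3 it passed under upper quartile normalization (−0.27, adjusted p = 0.0497) and without replicate 2 of the uncrushed cells (−0.34, adjusted p = 0.0144). The fall of 0.33 from day 3 to day 7 (adjusted p = 0.0441) was lost without any 1 of its 4 libraries, under upper quartile normalization (adjusted p = 0.0884) and with a replicate block (0.0595). In whole nerve the direction at days 3 and 5 depended on the scale, and at day 7 Tjp1 was lower on both. In FPKM the values were 52.5 and 57.7 before crush, 59.7 and 58.1 on day 3, 54.6 and 58.1 on day 5 and 47.0 and 56.0 on day 7. In normalised read counts (CPM on the TMM scale of the test) they were 438 and 488 before crush, 381 and 363 on day 3, 346 and 369 on day 5 and 300.2 and 350.0 on day 7, all below the uncrushed libraries. edgeR gave log2 fold changes of −0.32 (adjusted p = 0.0246, edgeR), −0.37 (adjusted p = 0.0136) and −0.51 (adjusted p = 0.00306). The first 2 calls were lost when all 16 libraries were fitted together (adjusted p = 0.0700 and 0.0509) and without 3 and 2 of the 4 single libraries, replicate 2 of uncrushed nerve among them in both.

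The 16 libraries were then fitted together to find which junction genes the purified cells carry in comparison with the nerve they came from. Cldn1, Cldn5, Ocln and Gja1 were lower in the purified cells and Tjp1 higher, both before crush and on each day after it. Before crush Gjb1 and Cldn19 were the lower in Schwann cells, and at days 3 and 5 the higher. Cldn5 and Ocln entered this fit only through whole nerve, where they are high, so that they had to differ, and the counts are given over the 7 members that could be tested in each tissue alone. The shares of all genes do include genes that entered through 1 tissue. Before crush 5 of the 7 passed (1 higher, 4 lower) where 64.4% of all genes did (29.1% higher, 35.3% lower). After crush 6 passed at day 3 (4 higher, 2 lower), against 57.3% of all genes (24.5% higher, 32.8% lower), 6 at day 5 (4 higher, 2 lower), against 51.7% (23.2% higher, 28.4% lower), and 4 at day 7 (2 higher, 2 lower), against 51.0% (22.4% higher, 28.7% lower). Under upper quartile normalization the balance of all genes turned, with 54.6% of the calls higher in Schwann cells at day 5 in place of 44.9%, and 51.4% at day 7 in place of 43.8%.

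**Figure D3:**
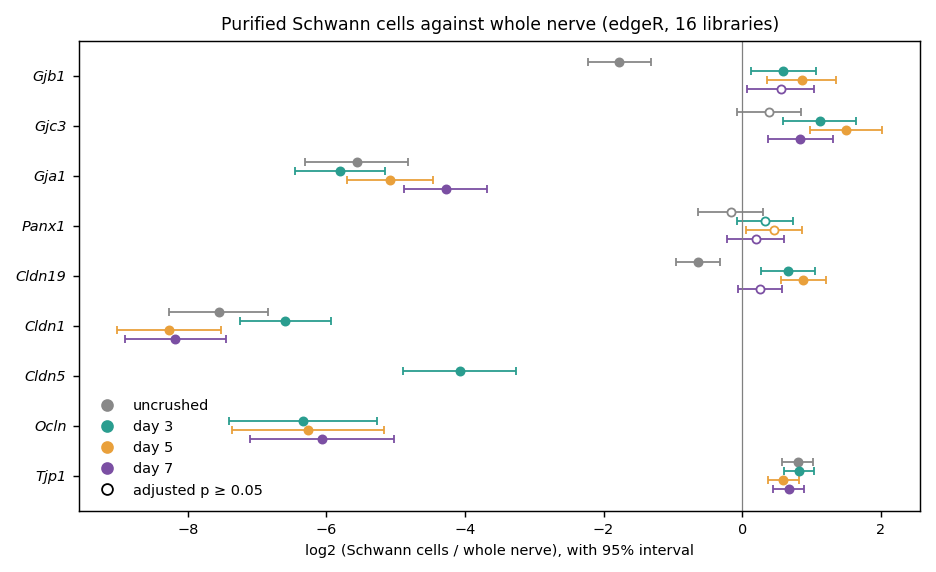
Log2 ratio of purified Schwann cells to whole nerve for each junction gene in uncrushed nerve and at days 3, 5 and 7 (edgeR, bars are 95% intervals, open points did not pass). Cldn5 before crush and at days 5 and 7 and Ocln before crush are left out, since the Schwann cells held 3 counts or fewer, and the points of Gjb1 and Cldn19 lie left of 0 before crush and right of it at day 3.

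The log2 difference of Cldn1 between the tissues was −7.56 before crush (SE 0.33) and lay between −8.27 and −6.59 after it, and that of Gja1 was −5.56 (SE 0.35) before crush and between −5.81 and −4.28 after it. Cldn5 was at least 191-fold lower in Schwann cells before crush, with 0 counts against 455 in whole nerve. It was 435-fold lower at day 5 (counting interval 77.6 to 17218) and 400-fold lower at day 7 (71.3 to 15835), with 1 count each. At day 3, with replicate 2, the difference was −4.08 (SE 0.38), and replicate 1 alone held 3 counts, 54.6-fold lower than whole nerve (counting interval 18.6 to 266). Ocln was 186-fold lower before crush (counting interval 63.2 to 905) and showed log2 differences of −6.34, −6.26 and −6.06 at the 3 days, and in replicate 1 of day 3 alone it had 0 counts, at least 81.6-fold lower. Without replicate 2 the differences at day 3 were −7.33 for Gja1 in place of −5.81 and −7.28 for Cldn1 in place of −6.59. Tjp1 was higher in Schwann cells by 0.80, 0.82, 0.59 and 0.67 on the log2 scale before crush and at days 3, 5 and 7 (SE 0.10 each), and its library values did not overlap between the tissues at any time point.

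Gjb1 was lower in Schwann cells before crush by 1.78 on the log2 scale (SE 0.21, adjusted p = 4.60e-06, edgeR) and higher by 0.59 at day 3 (SE 0.22, adjusted p = 0.0309), 0.86 at day 5 (SE 0.23, adjusted p = 0.00625) and 0.55 at day 7 (SE 0.23, adjusted p = 0.0551). The call at day 3 was lost without replicate 2 of Schwann cells or replicate 1 of whole nerve (adjusted p = 0.191 and 0.182), without a filter, under DESeq2 and with a replicate block (0.0576, 0.0517 and 0.0702), and that at day 5 without replicate 1 of Schwann cells or replicate 2 of whole nerve (0.0547 and 0.0528). At day 7 it passed under upper quartile normalization (0.0248). Cldn19 was lower in Schwann cells before crush by 0.64 (SE 0.15, adjusted p = 0.00175), higher at day 3 by 0.65 (SE 0.18, adjusted p = 0.00671), which was 0.44 (adjusted p = 0.0989) without replicate 2 of whole nerve, and higher at day 5 by 0.88 (SE 0.15, adjusted p = 0.00022). At day 7 it differed by 0.25 (adjusted p = 0.173), between −0.04 and 0.49 with either Schwann cell library of that day left out, the latter with an adjusted p of 0.0112. Gjc3 was 0.39 higher before crush (adjusted p = 0.126, and 0.0468 with only the compared groups fitted) and higher at days 3, 5 and 7 by 1.12, 1.5 and 0.84 (adjusted p = 0.00130, 0.000124 and 0.00504). The last was lost without replicate 1 of either tissue at day 7 (0.104 and 0.0801). Panx1 passed at no time point, with differences between −0.17 and 0.46, but at day 5 it passed under upper quartile normalization (0.59, adjusted p = 0.0156) and with at least 10 counts in every library (0.46, adjusted p = 0.0430). Schwann cell markers summed to 12602 and 15709 FPKM in uncrushed whole nerve against 7504 and 7537 in the purified cells, beside the lower Gjb1 and Cldn19, and the part of this in their differences was not tested.

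Whether the change after crush itself differed between the tissues was tested as an interaction. Among the same 7 members it differed for 2 at day 3 (26.0% of all genes, 12.3% higher in Schwann cells and 13.7% lower), 3 at day 5 (27.5%, 12.6% and 14.9%) and 2 at day 7 (26.0%, 11.6% and 14.4%), each time with the higher change in Schwann cells. For Gjb1 the change was higher in Schwann cells by 2.37 (SE 0.30, adjusted p = 5.14e-05, edgeR), 2.63 (SE 0.31) and 2.33 (SE 0.31) on the log2 scale. For Cldn19 it was higher by 1.29 (SE 0.23, adjusted p = 0.000932), 1.52 (SE 0.21, adjusted p = 0.00011) and 0.89 (SE 0.21, adjusted p = 0.0061). For Gjc3 it was higher by 1.11 at day 5 (SE 0.32, adjusted p = 0.0198), which was lost without replicate 1 of uncrushed Schwann cells or replicate 2 of day 5 in either tissue (adjusted p from 0.0556 to 0.0778). At day 3 Gjc3 passed with only the compared groups fitted (0.81, adjusted p = 0.0315), and Panx1 passed at day 5 without replicate 2 of the uncrushed Schwann cells (0.89, adjusted p = 0.0442). Cldn5 had 0 counts in both uncrushed Schwann cell libraries, so that its test has no baseline there and nothing is read from it. Gja1 did not pass at any day, with 95% intervals of −1.38 to 0.89, −0.59 to 1.54 and 0.24 to 2.32, but without replicate 2 of Schwann cells at day 3 its difference there was −1.77 (adjusted p = 0.00619). At day 7 it passed as higher in Schwann cells under 4 settings, namely without a filter (adjusted p = 6.37e-05), with at least 10 counts in every library (0.0470), with a replicate block (0.0435) and with only the compared groups fitted (0.00977). For Cldn1 the difference at day 3 was 0.96 (adjusted p = 0.143, edgeR), and it passed without a filter (0.000716). This difference was 1.32 without replicate 1 of uncrushed whole nerve and 1.31 without replicate 1 of Schwann cells at day 3. Without replicate 2 of those cells, which held more markers of other cells, it was 0.27.

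A list of 68 further junction genes, made of the other connexins, pannexins and claudins, the MARVEL and tricellular proteins, the JAM family and scaffold and polarity proteins, was read in the same way. At day 3, 33 could be tested in Schwann cells and 21 passed (6 higher, 15 lower), where 52.5% of all genes did (26.9% higher, 25.7% lower). In whole nerve 39 could be tested and 23 passed (5 higher, 18 lower), against 45.6% of all genes (23.1% higher, 22.5% lower). At day 7 the counts were 20 in Schwann cells (6 higher, 14 lower), against 46.9% of all genes (25.0% higher, 21.9% lower), and 19 in whole nerve (5 higher, 14 lower), against 31.3% (15.4% higher, 15.9% lower). With all 16 libraries fitted, the whole nerve count at day 7 was 12 (3 higher). The median log2 fold change at day 3 was −0.67 in Schwann cells and −0.37 in whole nerve, against 0.00 for all genes in both. Of 18 scaffold and polarity genes tested in Schwann cells at day 3, 11 passed (3 higher, 8 lower), of 6 claudins 4 (2 higher, 2 lower), of 3 JAM family genes 3 (all lower) and of 2 connexins none. In whole nerve 3 of 6 connexins passed at that day, all higher.

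**Figure D4:**
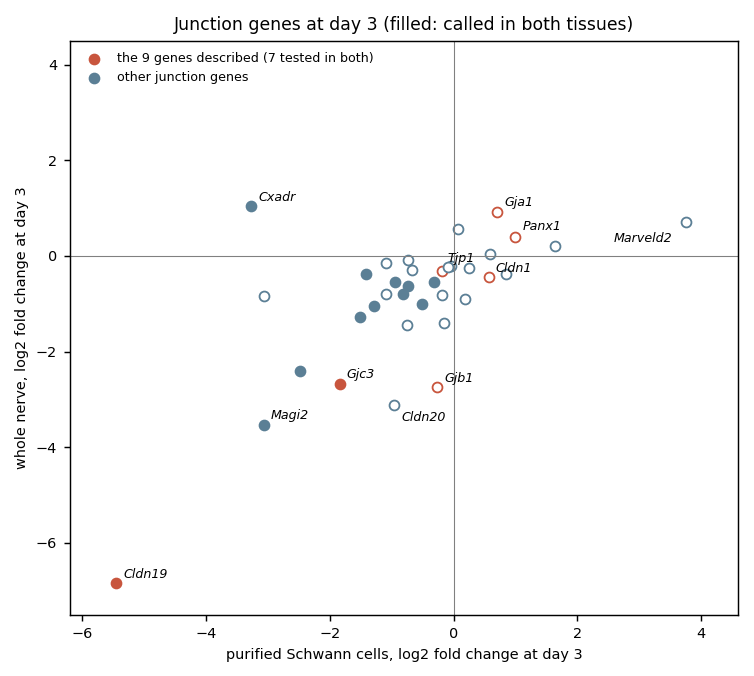
Log2 fold change at day 3 against uncrushed nerve in purified Schwann cells (horizontal) and whole nerve (vertical) for the junction genes tested in both, without Marveld3 and Cldn14, whose counts were 3 or fewer in a group. Cldn19 and Magi2 lie low in both, and Cxadr low in Schwann cells but high in whole nerve.

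Magi2, a scaffold of junctions, fell in both tissues at day 3, by 3.07 on the log2 scale in Schwann cells (SE 0.14) and by 3.53 in whole nerve (SE 0.26). Cxadr, an adhesion protein of the JAM family, went from 12.8 and 16.04 FPKM before crush to 1.85 and 2.80 at day 3 in Schwann cells, but from 21.9 and 26.8 to 64.9 and 68.2 in whole nerve. Its log2 fold changes were −3.27 (SE 0.29, adjusted p = 1.10e-05, edgeR) and 1.04 (SE 0.10, adjusted p = 2.17e-05), the only opposite pair among the 15 genes, members included, that passed in both tissues. Of the others 13 were lower in both. Cldn14 was higher in both, and rose in Schwann cells from 0.61 and 0.51 FPKM to 5.34 and 5.42 at day 3 (log2 fold change 3.10, SE 0.32), and in whole nerve 12.2-fold higher on 72 counts against 3 (counting interval 4.01 to 60.6). Marveld3, a relative of occludin, was 123-fold lower in Schwann cells at day 3, with 1 count, from replicate 2, against 79 (counting interval 21.5 to 4931), and fell by 4.24 in whole nerve (SE 1.02), while Marveld2 (tricellulin) rose by 3.75 in Schwann cells (SE 0.78) from 0.00 and 0.17 FPKM to 0.89 and 1.31. Cldn23 rose by 2.90 in Schwann cells (SE 0.88), from 0.09 and 0.10 to 0.87 and 0.62 FPKM. The changes of Magi2, Cxadr, Cldn14, Marveld2 and Cldn23 in Schwann cells at day 3 also passed without replicate 2 (log2 fold changes −3.00, −3.73, 3.07, 3.42 and 3.13). In whole nerve Cldn20 fell by 3.12 (SE 0.48) and the connexin Gjb5 rose by 1.90 (SE 0.40).

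Between the tissues before crush, 31 of the 68 could be tested in each tissue alone and 26 of them passed (11 higher in Schwann cells, 15 lower), against 64.4% of all genes (29.1% higher, 35.3% lower). Of those that entered through whole nerve, F11r, which encodes the junctional protein JAM-A, was at least 84.2-fold lower in Schwann cells, Gja5 (connexin 40), known from arterial endothelium, at least 72.8-fold and Gjb5 at least 7.57-fold, each with 0 counts in Schwann cells. The highest in Schwann cells were Cldn14 (4.22-fold, on 16 counts against 3, counting interval 1.21 to 22.6), Ildr2, a protein of tricellular junctions (log2 difference 1.68, SE 0.22), and Amotl2, a scaffold of the angiomotin family (1.39, SE 0.15).

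The genes whose log2 level was most like that of each member were found by Pearson's r, as a description over the 16 libraries, which share the contrast between the tissues. Cldn19 was most like LOC102547697 (r = 0.996), Emid1 (0.981) and Mag (0.981), Gjc3 like Soga3 (0.964) and Sh3tc2 (0.957), and Gjb1 like Tmem189 (0.979) and Mapk8ip1 (0.966). Cldn1 was most like Dcn (0.996), a fibroblast gene, Gja1 like Fam167a (0.991), Igfbp4 (0.991) and the macrophage gene C1qa (0.988), Cldn5 like the mast cell gene Tpsb2 (0.996), and then Tpsab1 (0.994) and Pecam1 (0.991), and Ocln like Clic5 (0.991). Tjp1 was most like Ddhd1 (0.973) and Panx1 like LOC691931 (0.958). Within the 8 Schwann cell libraries the nearest were Magi1 for Cldn19 (0.996), Pdss2 for Gjc3 (0.993), Hars for Panx1 (0.991) and Nectin3 for Tjp1 (0.996), and for Gjb1 and Gja1, which had few counts, Zcchc3 (0.966) and Sf3b5 (0.964).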

How the data were processed

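Fragments had been counted by the authors, per the methods, after alignment with STAR (v2.7.1) to the rat genome Rnor_6.0, with RSEM (v1.3.1); the submitters' notes name CASAVA, STAR and RSEM. The deposited expected counts are not normalized, and the deposited FPKM and TPM were made by the authors in the same step. The cDNA was amplified without molecular identifiers, and the strand setting was not given in the sources used here. A second table, with 8 columns of FPKM from other software and no sample labels of its own, was not used.

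After rounding, expected counts went into edgeR 4.0.16 (R 4.3.3), whose quasi-likelihood F test was used with TMM factors, filterByExpr and Benjamini-Hochberg adjustment at 0.05 over all genes: 14961 genes over the 8 Schwann cell libraries, 15831 over the 8 whole nerve libraries and 16829 over all 16. Standard errors and 95% intervals come from the same fits. With 3 counts or fewer over the 2 libraries of a group, folds are bounds at a floor of 3 counts or ratios with exact counting intervals, which cover counting error only. Log2 levels for likeness used a prior count of 2. The test was checked on simulated counts. Alternatives were upper quartile and median-ratio scaling, DESeq2 1.42.0, no filter, at least 10 counts in every library, other sets of libraries in the fit, a replicate block and each library left out, where the lone library of a group is assumed to vary like the other groups. Correlations of same-numbered libraries lay between −0.09 and 0.03 in Schwann cells and between 0.0018 and 0.17 in whole nerve, where all 6 were positive but not all above 0.1, and the numbers were not taken to pair the samples. In no group did the 2 libraries agree within sampling noise, and other pairs were not compared.

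Promoter stretches were read from RefSeq (GRCr8), where all 9 genes matched by symbol. Gene names are the symbols of the deposited files. The members and lists were chosen with earlier results of these data known. The text names all 9 members, the 3 wider junction genes with the largest and the 3 with the smallest called log2 fold change at day 3 in each tissue and between tissues before crush, and for likeness the nearest genes.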

Additional observations from a re-analysis of the deposited data

Results flagged for a closer look

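The results below are those where the effect of crush differed between purified Schwann cells and whole nerve by the interaction test of edgeR over 16 libraries. For Gjb1 the log2 change after crush was higher in Schwann cells by 2.371 at day 3, 2.6326 at day 5 and 2.3294 at day 7. For Cldn19 it was higher by 1.2926, 1.5216 and 0.89113 at the same days, and for Gjc3 by 1.1095 at day 5. Cldn5 at day 3 was left out, since both uncrushed Schwann cell libraries held 0 counts. The causes were not tested. Groups of 2 libraries were too small for a search for single outlying libraries.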

How the results depend on the processing

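Across 113 recounts of the members that passed, under settings other than leaving out a library, 111 stayed within 1.5 times the reported count. The exceptions were day 7 against day 3, with 5 members in Schwann cells when all 16 libraries were fitted and 5 in whole nerve without a filter, in place of 3 each. Among the wider junction genes, whole nerve at day 7 gave 12 in place of 19 with all 16 libraries fitted, and day 7 against day 3 in whole nerve gave 14 in place of 9 without a filter. With at least 10 counts in every library, which leaves fewer genes to test, Schwann cells against whole nerve gave 20, 16, 12 and 11 before crush and at days 3, 5 and 7, in place of 34, 27, 23 and 21 among all 42 tested. Of 939 values of single members under these settings, 1 changed sign, Ocln in whole nerve at day 7 (0.00078, adjusted p = 1.0, all 16 libraries), 13 lost and 25 gained a call. Upper quartile scaling moved the median of all genes between the tissues by 0.14 at day 5 and 0.10 at day 7 on the log2 scale, and moved the share of higher among the genes that passed across 50% in 9 of 15 comparisons, by at most 9.7 percentage points. The causes were not tested.

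The replicate numbers were not taken to pair the libraries, although all 6 correlations in whole nerve were positive. The block raised the genes that passed in whole nerve from 7212 to 7351, 6082 to 6237 and 4952 to 5117 at the 3 days and from 3357 to 3634 between days 3 and 7, and lowered those in Schwann cells in all 4 of these comparisons. With a replicate block, Tjp1 in Schwann cells between days 3 and 7 (adjusted p = 0.0595), Panx1 in whole nerve at day 7 (0.0570) and Gjb1 between the tissues at day 3 (0.0702) lost their calls, the Gja1 difference in injury effect at day 7 gained one (0.0435), and no other call of a member changed.

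With each library left out in turn, the members that passed ranged from 3 to 5 in Schwann cells at day 3 and from 2 to 4 at day 7. The wider genes ranged from 5 to 9 in Schwann cells and 5 to 10 in whole nerve for day 7 against day 3, and from 7 to 10 and 8 to 12 for the difference in injury effect at days 3 and 5. Log2 fold changes that changed sign, none of which passed the test when all libraries were used, ranged in Schwann cells from −0.74 to 1.297 for Gja1 and −0.062 to 0.95 for Cldn1 at day 3, −0.41 to 0.094 for Gjb1 and −0.50 to 0.065 for Gjc3 at day 7, and −0.10 to 0.21 for Panx1 between days 3 and 7. In whole nerve they ranged from −0.70 to 0.068 and −0.067 to 0.70 for Cldn1 at days 5 and 7, −0.42 to 0.32 for Ocln at day 7 and −0.0022 to 0.28 for Gjb1 between days 3 and 7. Between the tissues they ranged from −0.44 to 0.066 for Panx1 before crush and −0.039 to 0.49 for Cldn19 at day 7, and for the injury effect at day 3 from −1.77 to 0.30 for Gja1, −0.10 to 0.15 for Tjp1 and −3.40 to 5.13 for Ocln. Leaving out a library lowered the genes that passed between days 3 and 7 from 3140 to between 1533 and 2182 in Schwann cells and from 3357 to between 1635 and 2516 in whole nerve. Ocln and Cldn5 in Schwann cells were limited by depth.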
